A study of Mus musculus with 14 samples.

Results

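Cultured hepatic stellate cells that lack p62 were compared with and without calcipotriol, and every gene of the deposited count table was examined. Stellate cells are the pericytes of the liver, which store retinoids when quiescent and make scar matrix when activated. The comparison rests on 4 of the 14 libraries of the series, which were taken as named in the labels. These are 2 libraries of p62KO cells given calcipotriol and 2 libraries of p62KO cells given vehicle. The same pair of treatments in WT cells (2 libraries each) served for the comparison of responses, and 6 libraries of liver tissue were not used here. In all of these groups the cells were isolated from WT or p62KO mouse livers, immortalized with SV40 Ag and grown in DMEM with serum. The p62KO cells carry a deletion of Sqstm1, which encodes the autophagy receptor and signalling scaffold p62. The dose of calcipotriol, the length of exposure and the number of independently immortalized lines are not stated in the labels. Since nothing states that the libraries of a group came from separate cultures, the p-values measure the spread between these libraries only, which may be technical. The title of the series names binding of p62 to the vitamin D receptor, and the comparison asks which genes respond to a ligand of that receptor when p62 is missing.

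Calcipotriol is a synthetic analogue of the active form of vitamin D. It binds the vitamin D receptor (Vdr), a nuclear receptor that pairs with a retinoid X receptor (Rxra, Rxrb or Rxrg) and binds DNA at a direct repeat of a hexamer with a spacer of 3 bases. Cyp24a1, the mitochondrial 24-hydroxylase that breaks down active vitamin D, is the best known target and closes a negative feedback loop. In stellate cells, ligands of the receptor are known for opposing the transcription of profibrotic genes driven by TGF-beta.

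The p62KO calcipotriol libraries held 26159634 and 29079258 counts, and the p62KO vehicle libraries held 18179803 and 18938666 counts. Levels are given as CPM, that is counts scaled to a fixed library total, after TMM scaling, in the order replicate 1 and then replicate 2, and a count floor of 3 in 1 library corresponds to between 0.107 and 0.158 CPM in these 4 libraries. Sqstm1 (chromosome 11, 50200152 to 50210820 on GRCm38) stood at 0.265 and 0.608 CPM in p62KO calcipotriol libraries, against 0.835 and 0.211 CPM in p62KO vehicle libraries. It lay between 316 and 340 CPM in the 4 WT libraries, so all 8 libraries fit their genotype labels. The cell type labels were checked against markers. Col1a1 (3061 to 8028 CPM), Vim (1751 to 4354 CPM), Acta2 (2632 to 4284 CPM) and Pdgfrb (129 to 214 CPM) were abundant in the 4 p62KO libraries, whereas Lrat, the retinoid-esterifying enzyme of quiescent stellate cells, had no count in any of them and Reln and Des stayed below 1 CPM. Markers of hepatocytes summed to 0.114 and 0.573 CPM in calcipotriol libraries, against 10.3 and 0.158 CPM in vehicle libraries. Most of the 10.3 CPM came from Hp, with 159 counts in vehicle replicate 1. Markers of macrophages and other leukocytes summed to 15.4 and 16.3 CPM in calcipotriol libraries, against 54.7 and 14.8 CPM in vehicle libraries. The leukocyte genes Ptprc, Cd3e, C1qa and Clec4f and the hepatocyte genes Ttr, Hnf4a and Ahsg had no count in any of the 4. Endothelial markers summed to 152 and 276 CPM in calcipotriol libraries, against 122 and 124 CPM in vehicle libraries, most of it from Eng, and cholangiocyte and epithelial markers to between 182 and 206 CPM in all 4.

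The replicates differed widely. A chi-square test of the counts gave 200 per degree of freedom between the p62KO calcipotriol replicates and 60.1 between the p62KO vehicle replicates, against 12 between the WT calcipotriol and 1.66 between the WT vehicle replicates. The distance between 2 libraries was taken as the root mean square of the log2 CPM differences over the 12681 tested genes. It was 0.681 between the calcipotriol libraries and 0.759 between the vehicle libraries. The closest pair crossed the treatments, with a distance of 0.34 between calcipotriol replicate 1 and vehicle replicate 2. Vehicle replicate 1 and calcipotriol replicate 2 therefore stand apart, each in its own direction and from each other (0.969). Many of the results, and the medians of all lists in the plot of gene lists, are therefore also given as calcipotriol replicate 1 minus vehicle replicate 2, a log2 difference between 2 libraries that has no replicate check. For genes chosen because the treatments do not overlap, the sign of that difference is fixed by the choice. For genes ranked by the width of the gap, its size is bounded by the choice too. This pair was also picked as the closest one, so a smaller difference in it is partly built in and is no check of the response. In these bulk samples, a change in the number of cells of one kind and a change in RNA per cell cannot be told apart.

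**Figure D1:**
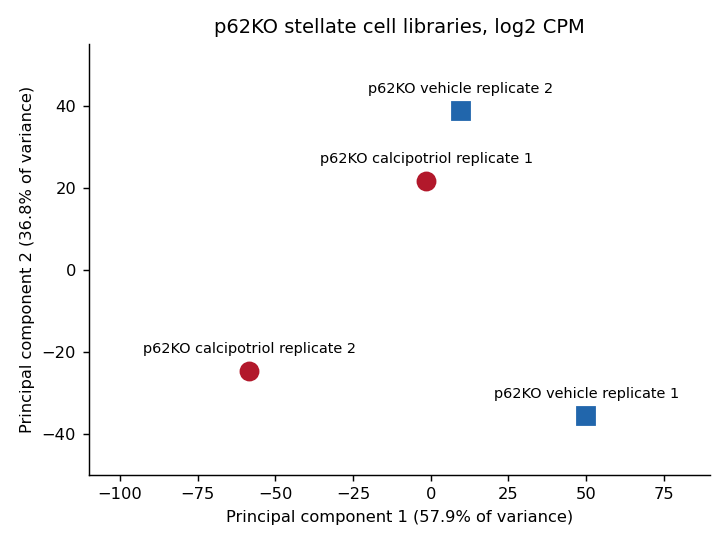
The 4 p62KO libraries are plotted on the first (57.9% of variance) and second (36.8%) principal components of log2 CPM, circles for calcipotriol and squares for vehicle. Calcipotriol replicate 1 lies nearest to vehicle replicate 2, while calcipotriol replicate 2 and vehicle replicate 1 sit far from them on opposite sides of the first component.

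No gene passed an adjusted p of 0.05 in either direction (0% of 12681, edgeR quasi-likelihood test with Benjamini-Hochberg adjustment). At an unadjusted p under 0.05, 1039 genes were higher with calcipotriol (8.19%) and 675 were lower (5.32%), and DESeq2 called 34 genes higher and 19 lower at its adjusted threshold. Both calcipotriol libraries lay above both vehicle libraries for 2708 genes (21.4%) and below them for 2414 genes (19%). Of these, 196 genes were also at least 2-fold higher in the group means of log2 CPM (1.55%) and 366 were at least 2-fold lower (2.89%). In calcipotriol replicate 1 over vehicle replicate 2, 55 of the 196 higher genes (28.1%) and 37 of the 366 lower genes (10.1%) still differed by 2-fold in the same direction, and the median log2 difference was 0.61 in the first set and -0.38 in the second, with signs that the rule fixes. By itself that pair of libraries held 217 genes 2-fold higher (1.71%) and 77 genes 2-fold lower (0.607%).

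Cyp24a1 had the largest log2 fold change of the 32 tested target genes of the receptor. It stood at 32.9 and 23.9 CPM in p62KO calcipotriol cells, against 1.83 and 5.12 CPM in p62KO vehicle cells (chromosome 2, 170482957 to 170497145). Both calcipotriol libraries were far above both vehicle libraries. The log2 fold change was 3.03 ± 0.43 (SE, n = 2 each, edgeR adjusted p = 0.303), and it was 2.66 in calcipotriol replicate 1 minus vehicle replicate 2. Over 18 other settings the adjusted p ranged between 1.87e-10 and 0.979, and it was under 0.05 in 5 of them. Without the 2 libraries that stand apart it was 0.0335, in a fit where each remaining p62KO library is alone in its group and is assumed to vary like the WT replicates.

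Rassf2, a Ras-association domain protein described as a tumour suppressor, had the smallest p of all genes. It stood at 13.3 and 14.8 CPM in p62KO calcipotriol cells, against 2.51 and 2.48 CPM in p62KO vehicle cells (chromosome 2, 131992850 to 132030416). Here the replicates of each treatment nearly coincided, even though the libraries as a whole did not. The log2 fold change was 2.49 ± 0.24 (SE, n = 2 each, edgeR adjusted p = 0.0555), with adjusted p between 1.53e-10 and 0.534 over the other settings and under 0.05 in 5 of 18. It kept a log2 fold change between 2.41 and 2.59 whichever library was left out.

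The genes named next are the 15 with the widest gap between the treatments, counting the lowest calcipotriol library against the highest vehicle library, among genes whose mean reached 5 CPM in the group where they were higher. The mean of the other group was not limited. Cyp24a1 and Rassf2 lead them. Krt17, a type I keratin of basal epithelia, stood at 6.10 and 10.3 CPM in calcipotriol cells, against 0.574 and 1.37 CPM in vehicle cells. Afap1l2, an adaptor of Src and PI3-kinase signalling, stood at 45.9 and 60.2 CPM in calcipotriol cells, against 11.7 and 14.4 CPM in vehicle cells. Apcdd1, a membrane inhibitor of Wnt signalling, stood at 46.9 and 64.1 CPM in calcipotriol cells, against 14.2 and 21.5 CPM in vehicle cells. In none of these 3 genes did the groups overlap, and the log2 fold changes were 3.07 ± 0.50, 2.02 ± 0.25 and 1.64 ± 0.25 (SE, n = 2 each), with edgeR adjusted p of 0.361, 0.165 and 0.355. Over the other settings the lowest adjusted p of the 3 was 1e-04, 6.51e-09 and 2.42e-05 and the highest was near 1.

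The other 10 had log2 fold changes between 1.23 and 2.02, and each had an edgeR adjusted p of 0.361. Cib2, a calcium and integrin binding protein, stood at 56.2 and 90 CPM in calcipotriol cells, against 26.4 and 26.2 CPM in vehicle cells. Ckb, the brain-type creatine kinase, stood at 25.0 and 52.0 CPM in calcipotriol cells, against 6.63 and 12.3 CPM in vehicle cells. Itga8, the integrin subunit that pairs with beta 1 and marks contractile mesenchymal cells, stood at 8.68 and 6.33 CPM in calcipotriol cells, against 2.92 and 3.27 CPM in vehicle cells. Cyp26b1, which degrades retinoic acid, stood at 4.39 and 5.80 CPM in calcipotriol cells, against 1.20 and 2.43 CPM in vehicle cells. The vehicle libraries were close to each other for Cib2 and Itga8 and up to about 2-fold apart for Ckb and Cyp26b1. The remaining 6 were Prrt4, Slc45a3, Gdpd5, Atg16l2 (a homologue of the autophagy factor Atg16l1), Tmem86a (a lysoplasmalogenase) and Stard10 (a lipid transfer protein). In calcipotriol replicate 1 minus vehicle replicate 2, whose sign and least size the choice of the 15 fixes, the log2 differences were 0.83 to 2.66.

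**Figure D2:**
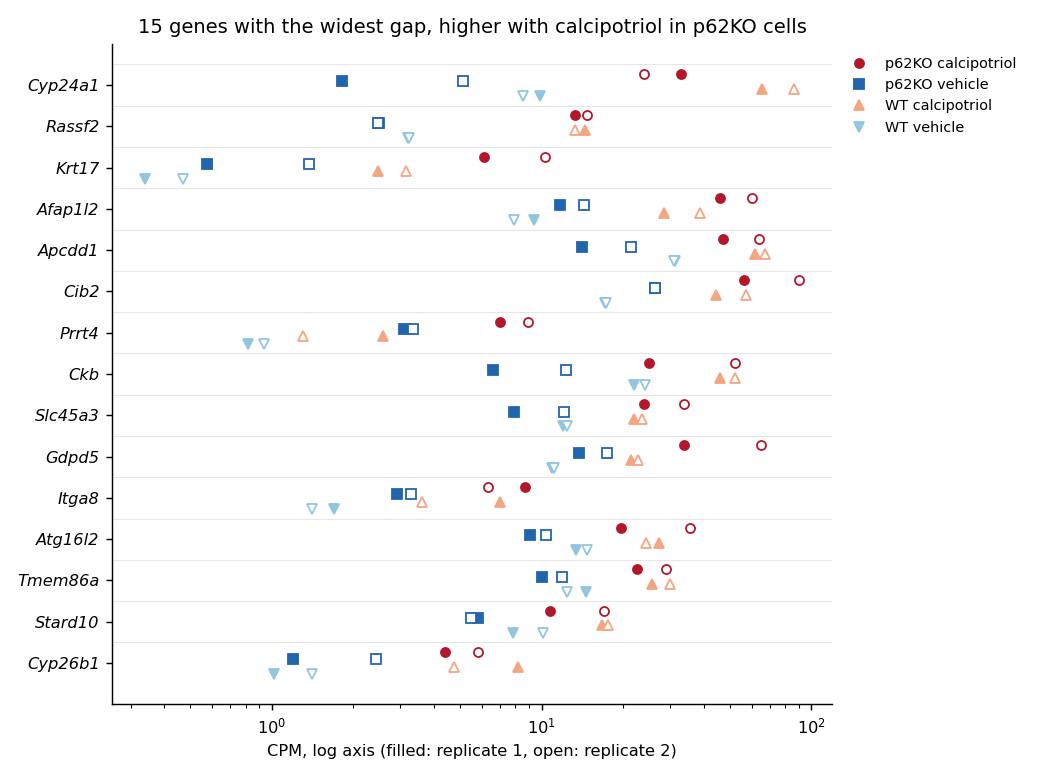
CPM of the 15 genes in all 8 stellate cell libraries on a log axis, p62KO calcipotriol (circles), p62KO vehicle (squares), WT calcipotriol (upward triangles) and WT vehicle (downward triangles), with replicate 1 filled and replicate 2 open. In p62KO cells both calcipotriol libraries lie right of both vehicle libraries for each gene, which is how the genes were chosen, and the WT libraries, which the choice did not use, are ordered in the same way for all 15.

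The promoters of these genes were read from RefSeq (GRCm38.p6) as windows of 300 bases, 250 before and 50 after the annotated start. Cyp24a1 had no entry, and 11 of the 15 genes had one, with 12 windows. They are shown because these genes were all higher with a ligand of the receptor, and they were searched on both strands for AGGTCA, 3 free bases and AGGTCA again, the direct repeat named DR3. At up to 2 mismatches in its 12 fixed letters, 1 of the 12 windows held it, that of Stard10, against 3.06% of 32851 RefSeq promoter windows. At up to 3 mismatches, 5 of the 12 windows held it, against 22.4% of all windows. Of those 5, 3 are printed below, and those of Slc45a3 and Cib2 are not. The 3 windows run 5′ to 3′ along the gene, with the best match in capitals. It begins 195 bases before the start in Rassf2 (chr2:132030275-132030574, minus strand, 3 mismatches) and reads there on the opposite strand of the gene. In Afap1l2 it begins 33 bases after the start (chr19:57008526-57008825, minus strand, 3 mismatches), also on the opposite strand, and in Stard10 it begins 53 bases before the start (chr7:101316836-101317135, plus strand, 2 mismatches) on the strand of the gene. The Afap1l2 window lies inside the span of the gene (56912354 to 57028589), at a start other than its outermost one. The start used for Rassf2 also lies inside the span of its gene (131992850 to 132030416), although the window reaches past the end. A match of this kind is a description of letters and not a binding site.
Rassf2: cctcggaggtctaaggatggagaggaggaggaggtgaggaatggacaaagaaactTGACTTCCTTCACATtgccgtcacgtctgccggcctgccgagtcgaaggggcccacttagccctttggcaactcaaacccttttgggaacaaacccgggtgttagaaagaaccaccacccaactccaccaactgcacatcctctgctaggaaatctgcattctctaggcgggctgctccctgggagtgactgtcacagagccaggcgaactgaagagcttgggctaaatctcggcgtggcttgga
Afap1l2: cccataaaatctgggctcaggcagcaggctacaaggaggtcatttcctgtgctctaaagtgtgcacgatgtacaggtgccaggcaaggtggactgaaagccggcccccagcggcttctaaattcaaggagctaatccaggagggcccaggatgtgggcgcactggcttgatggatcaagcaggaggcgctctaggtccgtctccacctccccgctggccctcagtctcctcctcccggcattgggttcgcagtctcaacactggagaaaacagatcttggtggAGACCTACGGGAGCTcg
Stard10: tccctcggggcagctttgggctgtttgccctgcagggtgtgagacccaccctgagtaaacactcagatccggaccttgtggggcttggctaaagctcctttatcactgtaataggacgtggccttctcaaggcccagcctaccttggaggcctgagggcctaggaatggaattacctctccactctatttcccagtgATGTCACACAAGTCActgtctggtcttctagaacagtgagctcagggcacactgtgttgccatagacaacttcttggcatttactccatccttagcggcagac

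Vdr itself (chromosome 15, 97854427 to 97908296) stood at 19.6 and 26.0 CPM in p62KO calcipotriol cells, against 10.2 and 15.5 CPM in p62KO vehicle cells. The groups did not overlap, with a log2 fold change of 0.83 ± 0.25 (SE, n = 2 each, edgeR adjusted p = 0.361, between 0.0183 and 1 over the other settings), but the difference shrank to 0.34 in calcipotriol replicate 1 minus vehicle replicate 2. Rxra, the main partner receptor, stood at 53.8 and 82.9 CPM in calcipotriol cells, against 50.7 and 49.8 CPM in vehicle cells. The higher value came from calcipotriol replicate 2. Cyp27b1, which makes active vitamin D, was below 0.5 CPM in all 4 libraries.

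Of the 19 tested genes of the receptor and its machinery, 2, Cyp24a1 among them, were 2-fold higher with no overlap and none was 2-fold lower. By that rule 1.55% of all tested genes were higher and 2.89% lower. The list's median log2 fold change was 0.28, beside -0.05 over all tested genes, and -0.01 in calcipotriol replicate 1 minus vehicle replicate 2. Of 32 tested genes described as receptor targets in various tissues, 2 were 2-fold higher (Cyp24a1, Lrp5) and 1 was 2-fold lower (Igfbp3). These counts stand beside 1.55% and 2.89% of all tested genes, and the list's median was 0.01. Lrp5, a Wnt co-receptor, stood at 89.2 and 198 CPM in calcipotriol cells, against 56.1 and 58.2 CPM in vehicle cells. Igfbp3, a carrier of insulin-like growth factors, stood at 0.530 and 0.573 CPM in calcipotriol cells, against 1.77 and 1.21 CPM in vehicle cells. The direction of Igfbp3 was thus opposite to that of Cyp24a1 and Lrp5. Spp1, which encodes osteopontin and is a target in bone cells, stood at 189 and 191 CPM in calcipotriol cells, against 191 and 171 CPM in vehicle cells, and Trpv6, Calb1 and Kl had no count in p62KO cells.

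Of 40 tested collagen and matrix genes, 11 lay above vehicle without overlap, 5 lay below it and 24 overlapped, where 21.4% and 19% of all tested genes lay above and below. By the 2-fold rule 1 gene of this list was higher (Col15a1) and none was lower, beside 1.55% and 2.89% of all tested genes. Vcan, with a log2 fold change of -1.003, narrowly missed that rule, which uses the mean of log2 CPM. The list's median was 0.17, and 0.08 in calcipotriol replicate 1 minus vehicle replicate 2. Col1a1, the main chain of type I collagen, stood at 4478 and 8028 CPM in calcipotriol cells, against 3061 and 3385 CPM in vehicle cells. Its log2 fold change was 0.96 ± 0.27 (SE, n = 2 each, edgeR adjusted p = 0.361), and 0.40 without the libraries that stand apart. Its partner chain Col1a2 overlapped, at 2361 and 2608 CPM in calcipotriol cells, against 2421 and 2052 CPM in vehicle cells. Fn1, fibronectin, stood at 3727 and 5891 CPM in calcipotriol cells, against 1657 and 3463 CPM in vehicle cells, so the vehicle replicates differed about as much as the treatments.

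Among 33 tested genes of matrix remodelling, Tgm2 was the one that was 2-fold higher without overlap, beside 1.55% of all tested genes. Tgm2, a transglutaminase that cross-links matrix proteins, stood at 238 and 367 CPM in calcipotriol cells, against 88.0 and 151 CPM in vehicle cells (log2 fold change 1.34 ± 0.30, SE, n = 2 each, edgeR adjusted p = 0.361). Timp3, an inhibitor of matrix proteases, stood at 1181 and 883 CPM in calcipotriol cells, against 2322 and 1473 CPM in vehicle cells. Lox, the lysyl oxidase that hardens collagen, stood at 1230 and 1236 CPM in calcipotriol cells, against 1465 and 1585 CPM in vehicle cells, a small gap of the same sign as that of Timp3. The stromelysin Mmp3 turned its direction with the libraries used. It stood at 6.29 and 3.22 CPM in calcipotriol cells, against 124 and 0.475 CPM in vehicle cells, so its log2 fold change was -3.71 over all 4 and 3.47 in calcipotriol replicate 1 minus vehicle replicate 2.

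None of 21 contractile genes and 1 of 33 genes of TGF-beta signalling (Tgfbi, lower) met the 2-fold rule. Of all tested genes, 1.55% met it in the higher direction and 2.89% in the lower. Acta2, smooth muscle actin and the usual sign of an activated stellate cell, stood at 2760 and 4284 CPM in calcipotriol cells, against 2632 and 2691 CPM in vehicle cells. Tgfb1, the main fibrogenic ligand, overlapped, at 27.3 and 36.2 CPM in calcipotriol cells, against 32.0 and 30.1 CPM in vehicle cells. Cald1, the actin-binding protein caldesmon, stood at 1246 and 856 CPM in calcipotriol cells, against 1451 and 1460 CPM in vehicle cells. Of the 21 contractile genes, 4 lay above vehicle without overlap and 4 below, near the shares over all tested genes (21.4% and 19%), and their median was 0.27, against 0.02 in calcipotriol replicate 1 minus vehicle replicate 2. Of 19 tested stellate cell and pericyte markers, Angptl6 was 2-fold higher and Hgf and Nt5e were 2-fold lower (median 0.03), beside those shares of 1.55% and 2.89%. Of 8 tested portal fibroblast and mesothelial markers, Cd34 was 2-fold lower, beside 2.89% of all tested genes, although their median was 0.54. In calcipotriol replicate 1 minus vehicle replicate 2 that median was 0.14, and Cd34 had -0.16, beside -1.47 over all 4 libraries.

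Paracrine factors are the signals through which stellate cells act on their neighbours. Of 42 tested growth factors and receptors, 3 were 2-fold higher (Pdgfb, Vegfa, Igfbp2) and 6 were 2-fold lower (Hgf, Fgf5, Fgf7, Ereg, Btc, Igfbp3), beside 1.55% and 2.89% of all tested genes. The list had no stable direction, since its median was -0.18 over all 4 libraries and 0.12 in calcipotriol replicate 1 minus vehicle replicate 2, where 5 members were 2-fold higher and 4 were 2-fold lower. Fgf7, a fibroblast factor that acts on epithelia (chromosome 2, 126034658 to 126091185), stood at 0.644 and 0.501 CPM in calcipotriol cells, against 17.6 and 1.74 CPM in vehicle cells. Its log2 fold change was -4.07 ± 0.94 (SE, n = 2 each, edgeR adjusted p = 0.361) and -1.31 without the libraries that stand apart. Hgf, the stellate cell factor that drives hepatocyte growth (chromosome 5, 16553495 to 16619439), stood at 0.606 and 0.143 CPM in calcipotriol cells, against 8.40 and 1.58 CPM in vehicle cells. Its difference was -3.73 ± 0.85 (SE, n = 2 each, edgeR adjusted p = 0.361), and -1.25 without those libraries. For both, vehicle replicate 1 was several times above vehicle replicate 2, which in turn was above both calcipotriol libraries.

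The EGF receptor ligands Btc and Ereg showed the same order of libraries. Btc stood at 1.55 and 0.644 CPM in calcipotriol cells, against 8.87 and 2.90 CPM in vehicle cells, and Ereg at 78.3 and 40.6 CPM in calcipotriol cells, against 291 and 101 CPM in vehicle cells. Fgf5 had 1 count in each calcipotriol library, a ratio of 0.156 to vehicle with a 95% counting interval of 0.0164 to 0.753. In the other direction, Pdgfb, a mitogen of stellate cells, stood at 3.48 and 5.40 CPM in calcipotriol cells, against 1.46 and 1.64 CPM in vehicle cells. Vegfa, the angiogenic factor, stood at 174 and 236 CPM in calcipotriol cells, against 74.1 and 136 CPM in vehicle cells. Among 23 tested Wnt genes, 4 were 2-fold higher (Wnt7b, Rspo2, Nkd1, Apcdd1) and 2 were lower (Sfrp1, Sfrp2). Of all tested genes, 1.55% were higher and 2.89% lower by that rule, and the list's median was -0.035. Wnt7b rested on 4 and 22 counts with calcipotriol, against 0 and 2 with vehicle. Sfrp2 had 99 and 125 counts with calcipotriol, against 5361 and 94 with vehicle, and Sfrp1 18 and 19, against 73 and 14. In these unscaled counts both were well above calcipotriol in vehicle replicate 1 only.

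The 15 genes with the widest gap in the lower direction were picked by the same rule as the 15 higher genes. The cytochromes Cyp1a1 and Cyp1b1, targets of the aryl hydrocarbon receptor, were both lower. Cyp1a1 stood at 3.79 and 4.08 CPM in calcipotriol cells, against 7.26 and 7.92 CPM in vehicle cells, with closely matching replicates and a log2 fold change of -0.95 ± 0.36 (SE, n = 2 each, edgeR adjusted p = 0.361). Cyp1b1 stood at 144 and 91.6 CPM in calcipotriol cells, against 408 and 252 CPM in vehicle cells. Htr2a, a serotonin receptor, stood at 2.88 and 2.58 CPM in calcipotriol cells, against 6.003 and 4.64 CPM in vehicle cells. For these 3 genes calcipotriol replicate 1 minus vehicle replicate 2 gave -1.04, -0.81 and -0.67, beside log2 fold changes of -0.95, -1.49 and -0.96 over all 4 libraries.

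Il6, the acute-phase cytokine (chromosome 5, 30013114 to 30019975), stood at 2.84 and 0.966 CPM in calcipotriol cells, against 23.4 and 4.33 CPM in vehicle cells. Its log2 fold change of -2.87 ± 0.75 (SE, n = 2 each, edgeR adjusted p = 0.361) became -0.59 in calcipotriol replicate 1 minus vehicle replicate 2. Tlr3, a receptor for double-stranded RNA, stood at 5.42 and 1.503 CPM in calcipotriol cells, against 18.2 and 8.34 CPM in vehicle cells. The histone genes Hist2h3c1, Hist2h3c2 and Hist2h2be belong to the 15 as well, and the first 2 are near-identical copies whose reads the counting could have split. Btc, Neurl3, Pion, Lrrc4c, Gcnt1 and Fgf7 belong to them too. In calcipotriol replicate 1 minus vehicle replicate 2, whose sign and least size the choice of the 15 fixes, the log2 differences lay between -1.31 and -0.55.

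**Figure D3:**
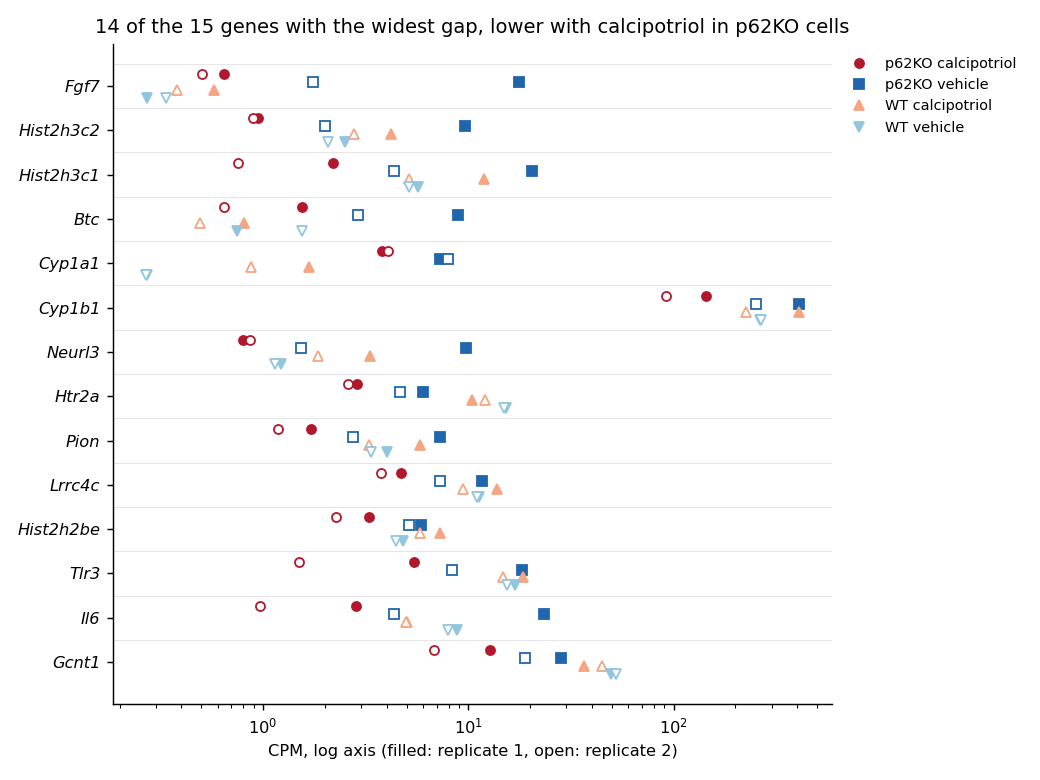
CPM of 14 of the 15 genes with the widest gap in the lower direction in all 8 libraries on a log axis, with the symbols of the plot of the 15 higher genes. For most genes the filled square of p62KO vehicle replicate 1 is far right of the open square of vehicle replicate 2, and the WT triangles show no common order.

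Of 26 tested cytokines and NF-kB targets, 1 (Il6) was 2-fold lower without overlap and none was higher, beside 2.89% and 1.55% of all tested genes. The list's median of -0.57 became 0.08 in calcipotriol replicate 1 minus vehicle replicate 2. Saa3, an acute-phase protein, stood at 0.189 and 0.251 CPM in calcipotriol cells, against 298 and 0.158 CPM in vehicle cells. The chemokine Cxcl1 stood at 0.985 and 0.394 CPM in calcipotriol cells, against 148 and 0.792 CPM in vehicle cells, and Ccl2 at 26.7 and 38.1 CPM in calcipotriol cells, against 350 and 25.9 CPM in vehicle cells. In each of the 3 genes, vehicle replicate 1 alone was high and vehicle replicate 2 lay within or next to the calcipotriol libraries. The summed leukocyte and hepatocyte markers, the latter mostly Hp, were also highest in vehicle replicate 1, and their part in these values was not tested.

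Of 31 tested interferon-induced genes, 6 were 2-fold lower without overlap (Ifit1, Ifit2, Ifit3, Rsad2, Cmpk2, Parp14) and none was higher, where 2.89% and 1.55% of all tested genes were. Ifit3 stood at 4.09 and 2.79 CPM in calcipotriol cells, against 20.4 and 4.80 CPM in vehicle cells. The direction of the list depended on the libraries, since its median was -0.78 over all 4 and 0.51 in calcipotriol replicate 1 minus vehicle replicate 2, where 4 members were 2-fold higher. For cholesterol synthesis, 10 of 25 tested genes lay below vehicle without overlap, where 19% of all tested genes did, with a median of -0.57, against -0.01 for that pair. Its member Sc4mol, a sterol demethylase, was the one that met the 2-fold rule.

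Of 37 tested genes of the unfolded protein response and the integrated stress response, 4 were 2-fold higher (Atf5, Trib3, Chac1, Ddit4) and 1 was 2-fold lower (Dnajb9), beside 1.55% and 2.89% of all tested genes. Another 20 of the 37 overlapped between treatments, none was 2-fold apart in calcipotriol replicate 1 minus vehicle replicate 2, and the median of 0.23 was 0.08 for that pair. Ddit4, an inhibitor of mTORC1, stood at 116 and 168 CPM in calcipotriol cells, against 56.2 and 71.8 CPM in vehicle cells. Its log2 fold change was 1.15 ± 0.22 (SE, n = 2 each, edgeR adjusted p = 0.361), and 0.69 in calcipotriol replicate 1 minus vehicle replicate 2. Trib3, a pseudokinase induced by ATF4, stood at 100.2 and 133 CPM in calcipotriol cells, against 28.3 and 72.0 CPM in vehicle cells. Atf5, Trib3, Chac1 and Ddit4 are all known from the ATF4 branch, whereas Dnajb9 is an endoplasmic reticulum chaperone partner.

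Among 24 tested p53 targets, 4 were 2-fold lower (Pmaip1, Fas, Perp, Trp53inp1) and none was 2-fold higher, beside 2.89% and 1.55% of all tested genes. Their median of -0.28 was 0.01 in calcipotriol replicate 1 minus vehicle replicate 2. Without overlap, 6 lay above vehicle and 10 below, where 21.4% and 19% of all tested genes did. At an unadjusted p under 0.05 in the edgeR test, 6 were higher and 4 lower, beside 8.19% and 5.32% of all tested genes. Members in the higher direction include Bbc3, Gadd45a and Aen, with log2 fold changes of 0.82, 0.56 and 0.74. Of 33 immediate early genes, Nr4a3 and Dusp5 were 2-fold higher, beside 1.55% of all tested genes. Dusp5, a phosphatase of ERK, stood at 60.2 and 115 CPM in calcipotriol cells, against 19.0 and 43.3 CPM in vehicle cells. Hypoxia genes had 1 in each direction (Vegfa higher, Hif1a lower), and 20 YAP and TEAD targets had 1 lower (Nt5e). By that rule 1.55% of all tested genes were higher and 2.89% lower. No member met the 2-fold rule among 39 cell cycle genes (median 0.00), 35 autophagy and lysosome genes (median -0.24), 31 NRF2 targets (median 0.08) and 15 genes of fatty acid synthesis (median -0.15).

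Gene families that stood out after the values were seen were summarised too, and were chosen for that reason. Of 81 tested ribosomal protein genes, 58 lay above both vehicle libraries, none below, and 7 were 2-fold higher, where 21.4%, 19% and 1.55% of all tested genes did so, with a median of 0.49 and of 0.19 in calcipotriol replicate 1 minus vehicle replicate 2. They took 4.85% and 6.55% of all counts in calcipotriol libraries, against 3.71% and 4.14% in vehicle libraries, and calcipotriol replicate 2 was the highest. Replication-dependent histone genes, whose mRNAs normally lack a poly(A) tail, had 5 of 19 tested members 2-fold lower, beside 2.89% of all tested genes. Their median was -1.15, against 0.12 for the pair without the libraries that stand apart. They took 0.0153% and 0.0149% of counts in calcipotriol libraries, against 0.0435% and 0.0141% in vehicle libraries. Of 9 tested beta-protocadherins, neighbouring cell adhesion genes of similar sequence, 6 were 2-fold lower, beside 2.89% of all tested genes. Their median of -1.47 became -0.10 for that pair. The same held for 13 tested CXC and CC chemokines, whose median of -1.83 became 0.08. Of 77 tested respiratory chain genes, 31 lay above both vehicle libraries and 4 below, where 21.4% and 19% of all tested genes did. Past 2-fold, 2 were higher and 1 lower, beside 1.55% and 2.89% (median 0.21, and 0.13 for that pair).

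**Figure D4:**
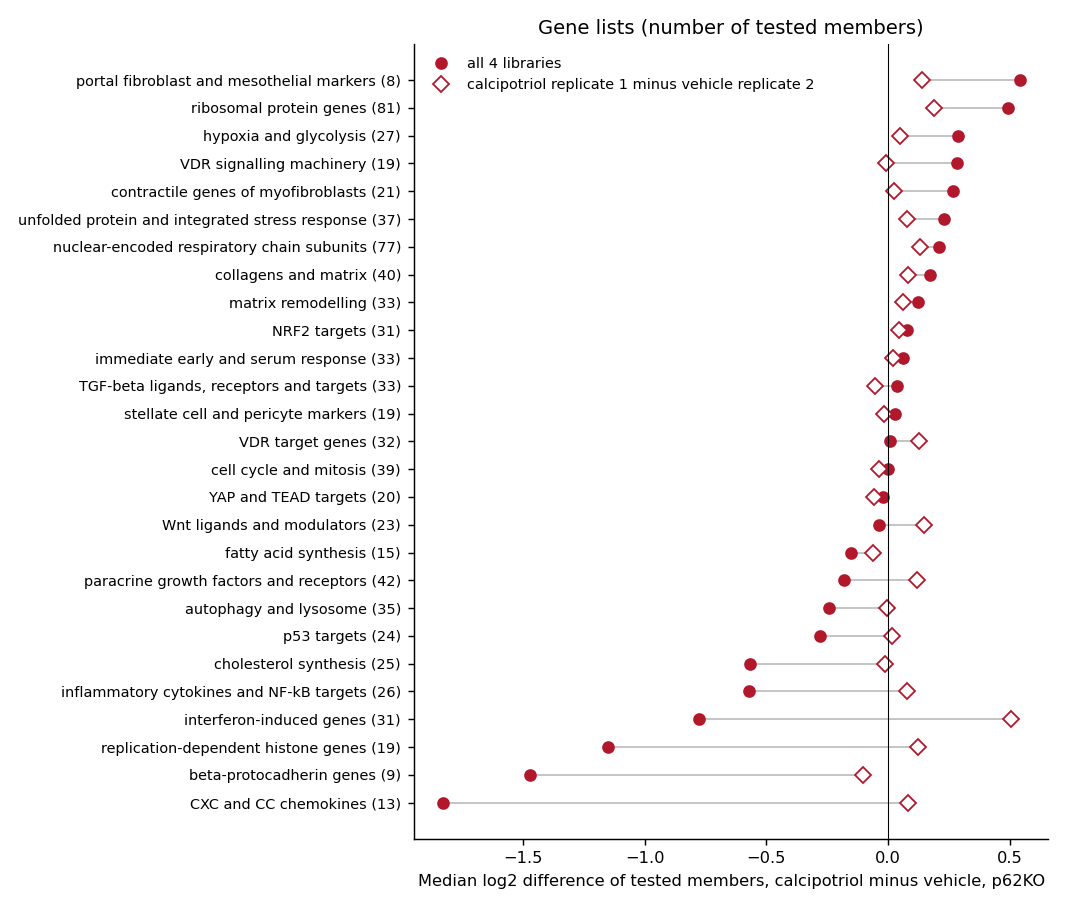
The median log2 difference of the tested members of each gene list, calcipotriol minus vehicle in p62KO cells, is plotted over all 4 libraries (filled circles) and for calcipotriol replicate 1 minus vehicle replicate 2 (open diamonds). The lists with medians below -0.5 over all 4 libraries lie at or above -0.10 for that pair, and interferon-induced genes change sign, to 0.51.

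The response was set beside that of WT cells. Each genotype has its own immortalized cells, so genotype and cell line cannot be told apart. Thy1, for example, lay between 173 and 417 CPM in the p62KO libraries and at or below 0.068 CPM in the WT libraries. Levels and fold changes of the 2 genotypes come from separate libraries, although standard errors and p-values use a spread estimated from all 8, and fitting the 4 p62KO libraries alone lowered the genes at an unadjusted p under 0.05 to 533, against 1714. Over all 12681 tested genes the log2 fold changes in p62KO and WT cells were barely related (Pearson -0.0961, Spearman 0.0533, a description across genes, which are not independent). All 15 of the widest-gap higher genes also had both WT calcipotriol libraries above both WT vehicle libraries, as 25% of all tested genes did. Of the 15 widest-gap lower genes, 4 were lower without overlap in WT cells (29.3% of all tested genes were), 5 were higher and 6 overlapped. Cyp24a1 stood at 65.4 and 86.0 CPM in WT calcipotriol cells, against 9.85 and 8.51 CPM in WT vehicle cells, a log2 fold change of 3.04 beside 3.03 in p62KO cells. The difference of the responses, p62KO minus WT, was -0.01 ± 0.64 (SE), so an unequal response of over 2-fold lies within 2 standard errors. For Rassf2 it was 0.37 ± 0.33 and for Vdr -0.14 ± 0.36, where Vdr stood at 30.3 and 30.1 CPM in WT calcipotriol cells, against 15.3 and 15.6 CPM in WT vehicle cells.

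Of the 196 genes that were 2-fold higher in p62KO cells, 33 met the same rule in WT cells (16.8% of the 196, and 12.2% of the 270 WT genes), where 2.13% of all tested genes did. They include Cyp24a1, Rassf2, Krt17, Afap1l2, Apcdd1, Itga8, Tgm2, Pdgfb and Cyp26b1, and further Dmpk, the myotonic dystrophy kinase, and F11r, the tight junction protein JAM-A. Dmpk stood at 100.1 and 177 CPM in p62KO calcipotriol cells, against 66.8 and 48.2 CPM in p62KO vehicle cells. Inmt, a methyltransferase of indole amines, was among them and had no count in either p62KO vehicle library, against 1.40 and 3.01 CPM in p62KO calcipotriol cells. These levels are 37 and 84 counts, and the ratio of the summed counts has a lower 95% counting limit of 22.6. Of the 366 genes that were 2-fold lower, 2 met the rule in WT cells, Aoc3 and Ppargc1a (0.546% of the 366, and 3.92% of the 51 WT genes), where 0.402% of all tested genes did. A further 15 of the 366 were 2-fold higher in WT cells (4.1% of the 366), where 2.13% of all tested genes were. Among them were Neurl3, Perp and Trp53inp1. Perp was low in WT cells, at 1.03 and 0.653 CPM with calcipotriol, against 0.136 and 0.335 CPM with vehicle.

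**Figure D5:**
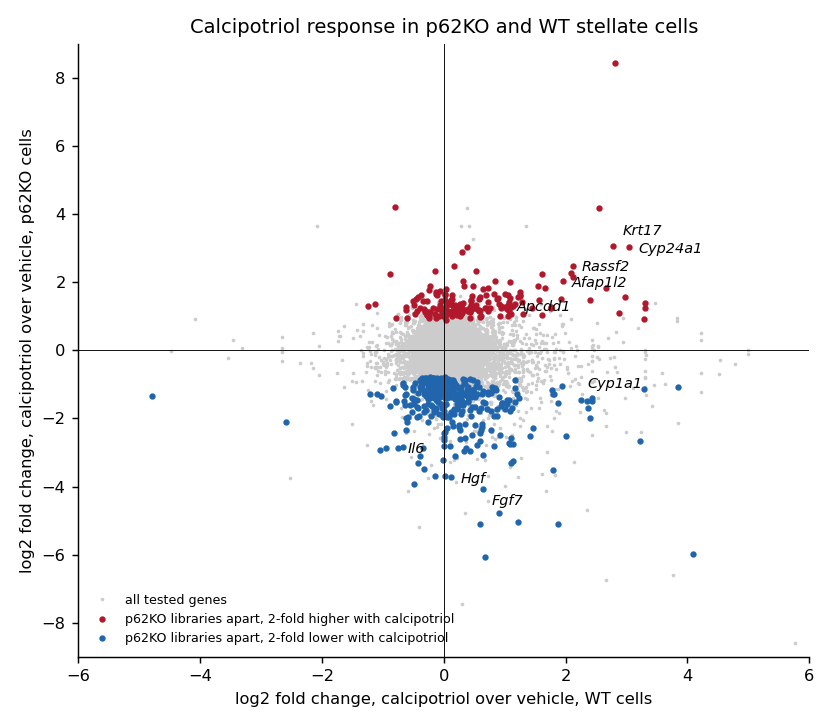
The log2 fold change of calcipotriol over vehicle in p62KO cells (vertical) is plotted against that in WT cells (horizontal) for the tested genes, with 5 genes outside the axes. Genes 2-fold higher in p62KO cells without overlap (red) reach into the upper right, where Cyp24a1, Rassf2, Krt17 and Afap1l2 lie, while the 366 lower genes (blue) spread to both sides of zero for WT cells.

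No gene passed for the difference of the responses between p62KO and WT cells (edgeR quasi-likelihood test with Benjamini-Hochberg adjustment, DESeq2 also 0). Any such difference could lie between the cell lines as well as between the genotypes. At an unadjusted p under 0.05, 292 genes had a greater log2 fold change in p62KO cells (2.3%) and 385 a smaller one (3.04%). The smallest p belonged to Cyp1a1 among the genes named here (unadjusted p = 0.000718, edgeR adjusted p = 0.708). It was lower with calcipotriol in p62KO cells, as given above, whereas it stood at 1.67 and 0.871 CPM in WT calcipotriol cells, against 0.272 and 0.268 CPM in WT vehicle cells. Map3k5, a stress-activated kinase, stood at 5.11 and 4.33 CPM in p62KO calcipotriol cells, against 13.3 and 7.13 CPM in p62KO vehicle cells. In WT cells it stood at 22.8 and 22.9 CPM with calcipotriol, against 13.7 and 11.8 CPM with vehicle. For both genes the libraries of each genotype did not overlap, in opposite directions. Abcb1a, a drug efflux pump, stood at 7.18 and 7.24 CPM in WT calcipotriol cells, against 1.495 and 1.54 CPM in WT vehicle cells, while in p62KO cells it stood at 2.39 and 1.503 CPM with calcipotriol, against 11.6 and 2.01 CPM with vehicle, where the groups overlapped.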

How the data were processed

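Poly(A) RNA was made into libraries with a directional kit and sequenced as single reads of 75 bases, per the labels' protocols. The authors deposited whole numbers per gene symbol (mm10, per the submitters' processing notes), with different library totals, which were taken as raw counts. The aligner, the counter and whether strand was used are not given in the sources used here, so reads of overlapping antisense genes cannot be told apart. The table has 23420 lines, of which 27 carry symbols turned into dates and 2 are repeated; none lacks a name. All 8 stellate libraries were fitted in 4 groups of 2 with edgeR 4.0.16 (filterByExpr, TMM, quasi-likelihood, Benjamini-Hochberg over 12681 genes) in R 4.3.3, and DESeq2 1.42.0 and other settings were tried. The script was tested on simulated data. CPM uses TMM-scaled library totals, and log2 CPM adds a prior count of 2. "2-fold without overlap" means that both libraries of a group lie on the same side of the other group and that mean log2 CPM differs by at least 1. This mean difference is not the printed log2 fold change. Near 2-fold the measures can part: Vcan (-1.003), Id2 (-1.09) and Ptgs2 (-1.02) missed the rule, whereas Vegfa (0.96) and Ifit2 (-0.96) met it.

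Named genes are Sqstm1, Vdr and Cyp24a1, the 15 widest gaps in each direction, up to 4 members of each list (at any level), and the 5 smallest p in each direction for the difference of responses; outside the lists, a mean of 5 CPM in the higher group was required; others were chosen after their values were seen, and some named genes are not reported here. The members and lists were chosen with earlier results of these data known. Replicate numbers come from the labels and were not used to pair the libraries in the main fit. The correlation of the deviations from the group means of same-numbered libraries was -0.148 in p62KO and 0.00844 in WT cells. These values cannot say whether same-numbered libraries were handled as pairs. Promoters are RefSeq sequences. Coordinates are on GRCm38. Depth was 15207117 to 29079258 counts per library, intervals and floors cover counting error only, and no batch is given in the labels.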

Additional observations from a re-analysis of the deposited data

Results flagged for a closer look

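Named genes were singled out where all p62KO calcipotriol libraries moved one way against vehicle and all WT calcipotriol libraries the other way. The difference of the responses was tested for each, and none passed (edgeR adjusted p of 0.708 or more). The values below are log2 fold changes in p62KO cells, those in WT cells, and the difference, p62KO minus WT. Standard errors of the differences lay between 0.32 and 1.503. In calcipotriol replicate 1 minus vehicle replicate 2, whose sign the choice fixes, every p62KO value but that of Cyp1a1 (-1.04) was smaller in size.

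Among growth factors, Fgf7 had -4.07 in p62KO and 0.64 in WT cells, a difference of -4.71, and Fgf5 had -2.49 and 0.91, a difference of -3.41. Fgf7 was low in WT cells, at 0.574 and 0.381 CPM with calcipotriol, against 0.272 and 0.335 CPM with vehicle. Cyp1a1 had -0.95 and 2.20, a difference of -3.15. The histone genes Hist2h3c2 (-2.65 and 0.60, difference -3.25) and Hist2h2be (-0.98 and 0.50, difference -1.49) and the ubiquitin ligase Neurl3 (-2.76 and 1.13, difference -3.89) had the same order. So did the ectonucleotidase Nt5e (-1.27 and 0.55, difference -1.83), the quinone reductase Nqo1 (-0.89 and 0.39, difference -1.27), the prolyl hydroxylase Egln3 (-1.11 and 0.14, difference -1.25) and the kinase Map3k5 (-1.11 and 0.84, difference -1.95). In calcipotriol replicate 1 minus vehicle replicate 2 of p62KO cells, Nqo1 had -0.24 and Egln3 -0.12.

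In the opposite order stood the myosin Myh9 (0.80 and -0.24, difference 1.04), the fatty acid synthase Fasn (0.76 and -0.32, difference 1.08), Ccdc85c (1.62 and -0.37, difference 1.995), the zinc finger gene Hivep3 (1.23 and -0.33, difference 1.56), Adat3 (1.09 and -0.50, difference 1.59) and the deubiquitinase Usp36 (0.75 and -0.31, difference 1.05). For that same pair of p62KO libraries, Myh9 had 0.17 and Fasn 0.16.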

How the results depend on the processing

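No gene was called in p62KO cells with median-of-ratios factors, a 5 CPM filter, a 2-fold minimum (glmTreat), the 4 p62KO libraries alone or, added after seeing the data, a robust spread. DESeq2 called 53 genes, no filter called 6, and leaving out vehicle replicate 1 and calcipotriol replicate 2 together called 5 (Fam43a, Apcdd1, Rassf2, Cyp24a1, Mmp3). Leaving out 1 library gave 0 to 4559 calls: 4559 without p62KO calcipotriol replicate 1, 195 without p62KO vehicle replicate 2 and 0 without any other, the lone library being assumed to vary like the other groups; the cause was not tested. For the difference of responses it gave 0 to 2514 calls, 2514 and 7 without those same libraries. The replicate block, although it is not known whether the numbers pair the libraries, gave 0 calls, and the crossed pairing, chosen after seeing the data, also 0. The count of 562 genes 2-fold apart without overlap was 341 with the 5 CPM filter and 560 to 793 under 3 other settings. Calcipotriol replicate 1 and vehicle replicate 2 alone gave 294 genes 2-fold apart, counted anew over all tested genes. Without vehicle replicate 1 and calcipotriol replicate 2, 4 genes named by the rule changed sign: Sqstm1 to 0.31, Cdo1 to 0.41, Abcb1a to 0.24 and Scel to 0.081. Of genes chosen after their values were seen, Mmp3, Cxcl1, Saa3 and Ccl2 also differed in sign in calcipotriol replicate 1 minus vehicle replicate 2. With 1 library left out the log2 fold change ranged from -0.97 to 1.03 for Sqstm1 and from -0.95 to 0.32 for Cdo1, and reached as low as -2.57 for Abcb1a and -1.56 for Scel; the cause was not tested. The floor of 3 counts, between 0.107 and 0.204 CPM over the 8 libraries, limits what can be said of genes such as Fgf5, Cyp27b1 and Des.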
